A study of Mus musculus with 10 samples.

Results

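The 10 genes described here encode enzymes that make the pyrimidine and deoxynucleotide building blocks of DNA: Tk1, Tyms, Rrm1, Rrm2, Dut, Dck, Dctd, Dtymk, Cad and Umps. Their members on the array were all probe sets whose platform annotation named 1 of these symbols and no other, which gave 27 of the 45037 probe sets tested. In number they ran from a single probe set for Tk1 and Dctd to 4 for Tyms and Umps. The samples were 10 RNA preparations from 4166 cells, a murine leukaemia line that carries the Mll-AF9 fusion, a translocation product that transforms myeloid progenitors. In 5 samples the cells had received a lentivirus with a short hairpin RNA (shRNA) against Meis1, a homeodomain transcription factor, and in 5 the empty vector, so the control held no hairpin. All samples shared the Mll-AF9 background, puromycin selection, collection at 48 h and a medium of IMDM, 15% serum and IL-3 at 2 ng/ml, and the labels paired each control with the shRNA sample of the same number. The study compared Meis1 knockdown with control in 1 line and with 1 construct, and the labels are silent on whether the samples of a group were separate cultures. The p-values therefore cover the spread among these samples only, and part of that spread may be technical.

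Pyrimidine rings are built from small precursors by Cad, which joins the first 3 steps in one protein, and are finished as uridine monophosphate by Umps. Ribonucleotide reductase, made of the large subunit Rrm1 and the small subunit Rrm2, turns ribonucleotides into deoxyribonucleotides. Thymidylate comes from deoxyuridine monophosphate through Tyms, with Dut and Dctd supplying that substrate, or from salvaged thymidine through Tk1. Dtymk then phosphorylates it, and Dck salvages deoxycytidine and purine deoxynucleosides. Many of these transcripts are known to peak around S phase and to be driven by E2F factors.

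The promoter windows of 3 members are shown: Tk1, the only member that passed the test described below, Rrm2, a subunit of the reductase, and Cad, the only member whose brightest probe set read above the controls on average. Each runs from 250 bases before to 50 bases after the RefSeq transcript start (build GRCm38.p6), 5′ to 3′ on the gene's strand. Capitals mark matches to any of the motifs searched.
Tk1, chr11:117825965-117826264, minus strand: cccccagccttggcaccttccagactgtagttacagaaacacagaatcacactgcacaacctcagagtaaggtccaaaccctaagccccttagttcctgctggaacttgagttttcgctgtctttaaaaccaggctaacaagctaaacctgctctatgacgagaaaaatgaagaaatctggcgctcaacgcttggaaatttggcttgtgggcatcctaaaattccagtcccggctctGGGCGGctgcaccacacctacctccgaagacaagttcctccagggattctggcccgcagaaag
Rrm2, chr12:24708004-24708303, plus strand: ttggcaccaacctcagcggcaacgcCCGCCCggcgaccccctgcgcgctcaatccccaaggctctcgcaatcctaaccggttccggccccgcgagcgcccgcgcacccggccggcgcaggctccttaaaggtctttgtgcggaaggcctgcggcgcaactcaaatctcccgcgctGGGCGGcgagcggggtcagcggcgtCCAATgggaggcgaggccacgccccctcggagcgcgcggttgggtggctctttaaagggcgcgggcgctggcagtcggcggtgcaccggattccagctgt
Cad, chr5:31054530-31054829, plus strand: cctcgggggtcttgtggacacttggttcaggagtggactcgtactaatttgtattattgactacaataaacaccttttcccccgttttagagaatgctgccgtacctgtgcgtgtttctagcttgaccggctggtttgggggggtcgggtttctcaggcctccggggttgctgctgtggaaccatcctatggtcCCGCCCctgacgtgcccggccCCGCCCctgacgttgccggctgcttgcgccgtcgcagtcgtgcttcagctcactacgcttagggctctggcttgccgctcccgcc

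All 10 members had a window in the RefSeq table. In the Tk1 window the capitals are a single GC box (GGGCGG) that begins 13 bases before the start. The Rrm2 window held GC boxes on both strands and a CCAAT box that begins 50 bases before the start, and the Cad window held GC boxes on the reverse strand only. A GC box was found in 8 of the 10 members' windows (80%) and in 35.9% of all 27025 windows. The CCAAT box (CCAAT) was found in 4 (40%, against 37.9% of all), the E box (CACGTG) in 2 (20%, against 7.24%) and the core word of Meis factors (TGACAG) in 2 (20%, against 19.3%). The words TTTCCCGC, TTTGGCGC, TTTCGCGC, TTTGGCGG and TTTCCCGG, written forms of the E2F element, were in 0 of the 10 windows and in 3.66% of all. Both strands were searched, and the only overlap between motifs was in the Tyms window, where an E box and a Meis word shared bases. These are letter matches in 1 window per gene and carry no measurement of binding.

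Array medians lay between 6.25 and 6.71 intensity units, and any 2 arrays correlated at 0.986 to 0.996 over all probe sets. Meis1 itself, the targeted gene, fell at its brightest probe set in the shRNA samples from 346 ± 56.3 to 165 ± 40.2 units (SD, n = 5). This was a log2 change of -1.09 with an adjusted p of 0.000767 by limma, lower in 5 of 5 pairs. The other Meis1 probe sets, both dim (mean log2 levels 2.91 and 2.47), changed by 0.09 and 0.11 (adjusted p = 0.694 and 0.664, limma). Of the myeloid marker list, 8 of 10 genes had a mean log2 level above 5, led by Mpo, and its summed intensity was 13697 to 20290 in controls and 12187 to 17647 with the shRNA. Within that list Kit (log2 change -0.78), Elane (-0.40) and Ptprc (-0.35) fell and 0 genes rose, where 2.98% of all genes were called lower. However, 5 others (Csf2rb, Cebpa, Fcgr3, Spi1 and Itgam) read higher at an unadjusted p under 0.05, and the median was 0.20 with 4 of 10 below 0. Without any one pair Elane and Ptprc did not pass (adjusted p of 0.0528 to 0.132 and 0.0638 to 0.129, limma), while Kit passed each time. The 7 erythroid and megakaryocytic markers measured (summed intensity 42.7 to 63.0 in controls, 48.5 to 57.1 with the shRNA) and the 8 lymphoid markers (42.6 to 48.8 and 45.0 to 55.7) stayed near background, with 0 genes past the adjusted threshold. At an unadjusted p under 0.05 the first list had 2 genes and the second 0, and their largest changes were Itga2b at -0.43 and Cd4 at 0.25. Stromal markers (389 to 1254 in controls, 293 to 1180 with the shRNA) had 0 calls and 2 genes at that unadjusted level, and of its 7 genes only Thy1, which haematopoietic progenitors also express, was above a log2 level of 5. The largest change among them was Col3a1 at 0.35 (adjusted p = 0.0756, limma).

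Other features of the samples ran alongside the comparison. The 3′ to 5′ signal ratio, taken from the Affymetrix control probe sets for Gapdh and actin, tracks RNA integrity and labelling, and was 0.28 ± 0.06 on the log2 scale in controls and 0.37 ± 0.02 with the shRNA. It was higher with the shRNA in 5 of 5 pairs. An exact permutation of the signs gave p = 0.0625, which is as low as 5 pairs can reach. Within groups, 44.5% of the variance lay on 1 axis. On it pairs 1 and 2 (16.5 to 23.2) stood apart from pairs 3 to 5 in both groups, so values are also given within these sets of pairs. Pair 5 (-25.9 in the control, -23.7 with the shRNA) also lay apart from pairs 3 and 4 (-9.92 to -0.313), so pairs 3 to 5 were not uniform.

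Across the 10 enzymes 1 gene, Tk1, fell after Meis1 knockdown, and no gene rose. At the level of 1 probe set per gene, the brightest, 9 of 10 had a change below 0. This held for 49.0% of all 18193 genes and for 58.5% of those with a mean log2 level above 5. The median was -0.29, against 0.004 over all genes and -0.04 over those brighter ones. The background was 2.98% of genes called lower and 1.08% called higher at an adjusted p of 0.05 (limma with the pair number as a block). At an unadjusted p under 0.05, 7 of the 10 were lower and 0 higher, where 11.1% of all genes, and 21.4% of those with a mean log2 level above 5, were lower. In 7 genes every shRNA sample read below its paired control, and 20.8% of all genes with a mean log2 level above 5 did so. The members were chosen with earlier results of these data known. These shares, and those by probe set below, therefore describe the members and do not test them as a set. Fewer cells of one kind, such as cells in S phase, and less of each transcript per cell cannot be told apart in these bulk samples.

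By probe set, 1 of 27 was called lower, where the background is 1.96% lower and 2.48% in either direction. A mean log2 level above 5 was reached by 18 of them, and 17 of these had a change below 0, against 59.8% of all 11215 such probe sets. Their median was -0.31, against -0.05 over the 11215. Of the 18, 14 read lower in all 5 pairs, against a background of 21.3%, and 7 had no overlap between groups with the shRNA lower, against 8.06%. The other 9 were dimmer, 4 of them for Tyms, with 0 called (1 at an unadjusted p under 0.05) and a median change of -0.07. The plot of changes by probe set shows these values with their intervals.

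**Figure D1:**
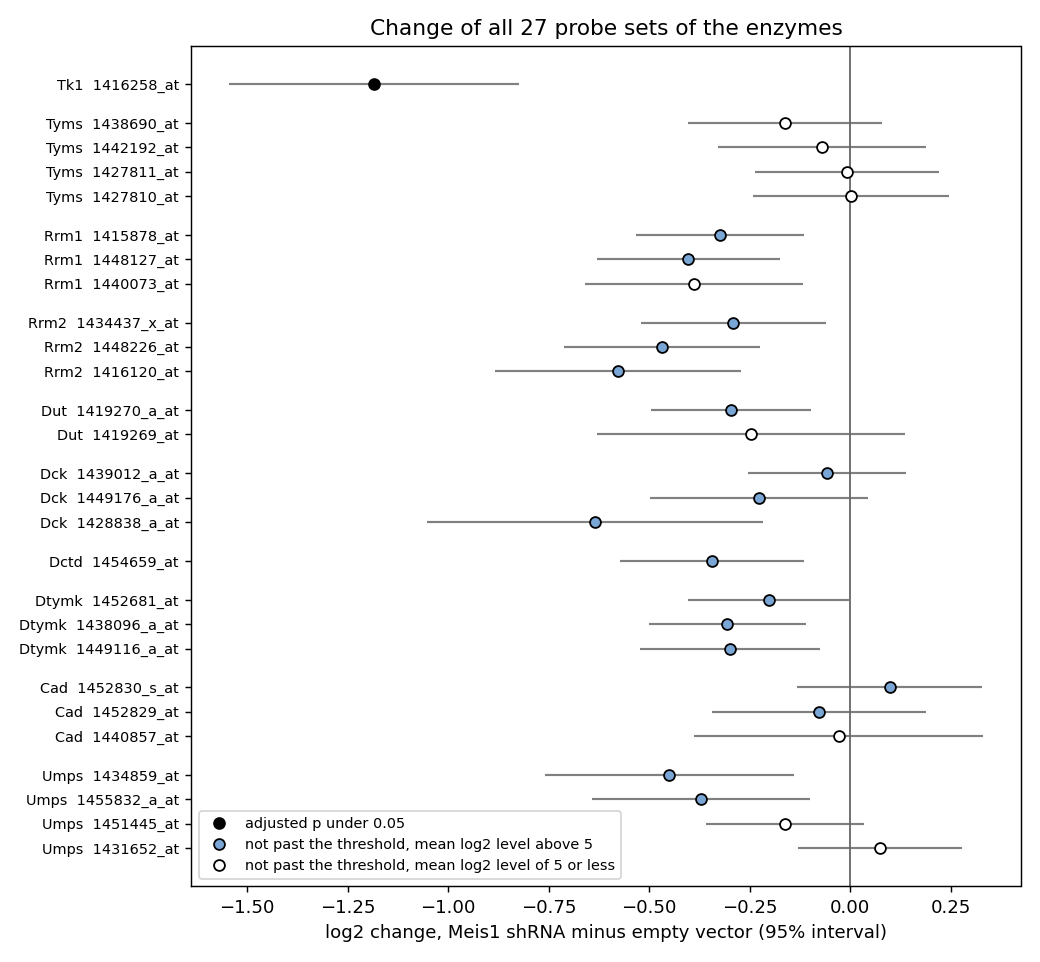
Log2 change (shRNA minus empty vector) of the 27 member probe sets, with 95% intervals from limma. Only Tk1, at -1.18, passed the adjusted threshold, and 24 of the 27 points lie below 0, against 47.8% of all probe sets.

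Tk1, the cytosolic thymidine kinase of the salvage route, read 322.1, 339.2, 238.4, 318.6 and 192.2 intensity units in control samples 1 to 5. In shRNA samples 1 to 5 it read 125, 152.7, 106.2, 94.63 and 137.1. The groups did not overlap, and the lowest control exceeded the highest shRNA sample. The means were 282.1 ± 63.6 and 123.1 ± 23.3 (SD, n = 5), a 2.27-fold decrease (log2 change -1.18, SE 0.16, 95% interval -1.54 to -0.82, adjusted p = 0.00724 by limma). The paired differences were -1.37, -1.15, -1.17, -1.75 and -0.49, smallest in pair 5, where the control was the lowest of its group. With each gene at its brightest probe set, the Tk1 decrease was larger than that of each of the other 9 members in all 5 pairs. The mean gap was 0.73 (Umps) to 1.28 (Cad) on the log2 scale. Dimmer probe sets of Dck (-0.63) and Rrm2 (-0.58) fell by more than the brightest of Umps (-0.45) and were not compared. Each of those 9 comparisons had an exact sign-flip permutation p of 0.0625, also after adjustment, which is the smallest possible, and they were chosen after the values were seen.

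**Figure D2:**
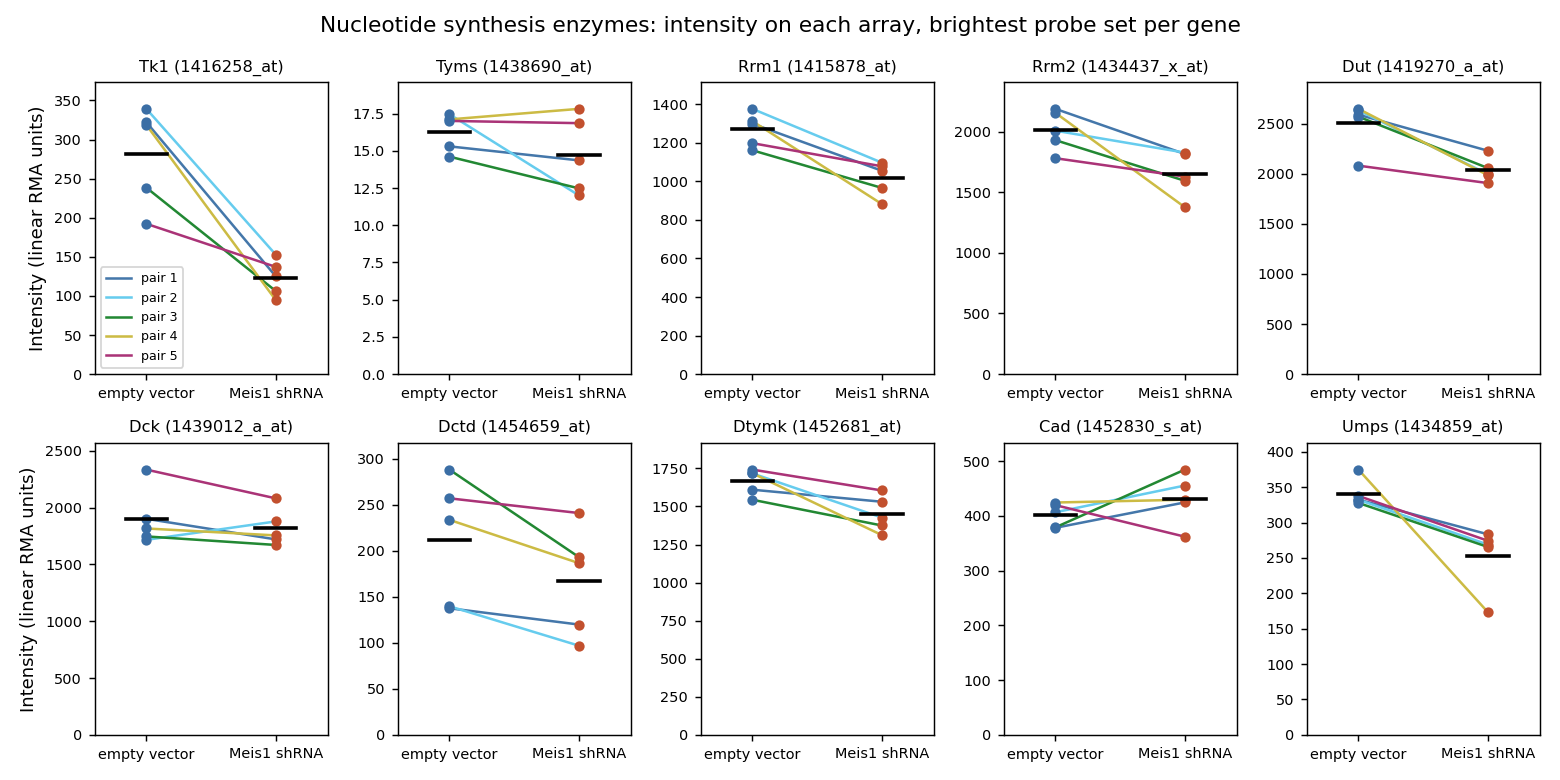
Intensity (linear RMA units) of the brightest probe set of each of the 10 enzymes on every array. Points are samples, lines join the samples of a pair and bars are group means, and in the panels of Tk1, Rrm1 and Umps every shRNA point lies below every control point.

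In the de novo thymidylate branch, Dut, which hydrolyses deoxyuridine triphosphate, read 2590, 2633, 2570, 2648 and 2081 in the controls and 2230, 1996, 2057, 1986 and 1907 with the shRNA. Control 5 lay within the shRNA range, so the groups overlapped, although each shRNA sample was below its own control. Its log2 change was -0.30 (SE 0.09, 95% interval -0.49 to -0.10), which did not pass (adjusted p = 0.143, limma).

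Dctd, the deaminase that turns deoxycytidine monophosphate into deoxyuridine monophosphate, read 137.6, 139.8, 288.3, 233.7 and 257.1 in the controls. With the shRNA it read 119.9, 96.97, 193.3, 186.7 and 241.1. The larger contrast was between pairs: pairs 1 and 2 lay between 96.97 and 139.8 and pairs 3 to 5 between 186.7 and 288.3, a 1.89-fold ratio of means, and no other member's brightest probe set separated these pairs without overlap. Within pairs the log2 change was -0.34 (SE 0.10, 95% interval -0.57 to -0.11), lower in 5 of 5 pairs and not past the threshold (adjusted p = 0.138, limma).

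Tyms, thymidylate synthase itself, was poorly measured: its brightest own probe set read 15.3, 17.46, 14.61, 17.11 and 17.01 in the controls and 14.36, 12.01, 12.48, 17.82 and 16.86 with the shRNA. The groups overlapped, and the change was -0.16 (95% interval -0.40 to 0.08, adjusted p = 0.558). A brighter probe set annotated jointly to Tyms and the pseudogene Tyms-ps lay outside the selection and cannot be assigned to either. It read 516.9, 552.8, 490.8, 538.2 and 457.6 in the controls and 472.5, 494.7, 404.8, 422.4 and 464.3 with the shRNA, a log2 change of -0.18 (SE 0.09, adjusted p = 0.416, limma).

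Dtymk, the thymidylate kinase that receives the product of both branches, had 3 probe sets with changes of -0.20, -0.31 and -0.30. All 3 were lower in 5 of 5 pairs and none passed. The brightest read 1610, 1717, 1544, 1718 and 1742 in the controls and 1531, 1427, 1375, 1312 and 1605 with the shRNA, and the ranges overlapped. The upper end of its 95% interval was -0.003 (adjusted p = 0.33, limma).

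Both subunits of ribonucleotide reductase read lower with the shRNA, without passing the test. Rrm1, the catalytic subunit, read 1299, 1376, 1161, 1312 and 1198 in the controls and 1055, 1097, 966.1, 882.3 and 1078 with the shRNA. The groups did not overlap (1269 ± 87.9 against 1016 ± 89.8, SD, n = 5), and the log2 change was -0.32 (SE 0.09, 95% interval -0.53 to -0.11, adjusted p = 0.127 by limma). A second Rrm1 probe set changed by -0.40 (adjusted p = 0.0842), again with no overlap, and another, dim one by -0.39 (adjusted p = 0.159).

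Rrm2, the subunit that carries the radical, had 3 probe sets whose changes were not of one size. The brightest read 2187, 2007, 1929, 2154 and 1780 in the controls and 1815, 1826, 1594, 1376 and 1628 with the shRNA, overlapping, with a change of -0.29 (SE 0.10, adjusted p = 0.216 by limma). The next read 1719, 1595, 1469, 1712 and 1402 against 1325, 988, 1201, 1013 and 1202, with no overlap and a change of -0.47 (SE 0.11, adjusted p = 0.0641). The dimmest of the 3 changed by -0.58 (SE 0.13, adjusted p = 0.0674). The name of the brightest carries the x suffix that Affymetrix gives to probe sets whose probes may also match other transcripts. With the mean of all probe sets of a gene in place of the brightest, Rrm2 passed (-0.45, adjusted p = 0.0374).

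Umps, which completes uridine monophosphate, read 332.4, 332.2, 327.7, 374.8 and 337.6 in the controls and 283.4, 268.9, 265.5, 173.4 and 274.3 with the shRNA. The groups did not overlap (340.9 ± 19.3 against 253.1 ± 45.1, SD, n = 5), and both extreme values belonged to pair 4. Its log2 change of -0.45 (SE 0.14, 95% interval -0.76 to -0.14) did not pass (adjusted p = 0.153, limma). Without pair 4 the change was -0.28 (adjusted p = 0.208 over genes). A second probe set gave -0.37 without overlap (adjusted p = 0.181), and the 2 dim ones -0.16 (adjusted p = 0.442) and 0.07.

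Cad, at the entry to the same pathway, went the other way on average. It read 378.2, 406.6, 379, 424.4 and 419.6 in the controls and 424.6, 455.4, 484.5, 429.5 and 362 with the shRNA, higher in 4 of 5 pairs with overlapping groups. The change was 0.10 (95% interval -0.13 to 0.33, adjusted p = 0.738), and its other bright probe set read -0.08 (adjusted p = 0.834), so its direction was not settled.

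Dck, the deoxycytidine kinase, differed between its probe sets. The brightest read 1901, 1716, 1746, 1816 and 2334 in the controls and 1720, 1878, 1671, 1755 and 2081 with the shRNA, with overlap and a change of -0.06 (95% interval -0.26 to 0.14, adjusted p = 0.83). The second read -0.23 (adjusted p = 0.438). The least bright read 92.64, 97.31, 77.25, 119.1 and 76.14 against 66.12, 45.76, 70.57, 47.08 and 69.68, which did not overlap, with a change of -0.63 (SE 0.18, adjusted p = 0.135 by limma).

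Pair by pair, the median difference over the 10 genes was -0.21, -0.32, -0.27, -0.40 and -0.14 in pairs 1 to 5, and 9, 8, 9, 8 and 10 genes read lower. The median over all genes in the same pairs stayed between -0.02 and 0.02. Of the 18 brighter probe sets, 16 to 17 read lower in each pair. The difference in 3′ to 5′ ratio was largest in pair 4 (0.188) and smallest in pair 5 (0.0124), the pairs with the largest and smallest Tk1 difference and median difference. When that ratio was added to the paired fit as a covariate, the Tk1 change was -0.59 (adjusted p = 0.563) and 0 member probe sets passed (3 at an unadjusted p under 0.05). The other 9 genes then lay between -0.30 and 0.02, and the median of the 10 was -0.11, against -0.29 in the main fit. Of the 18 brighter probe sets, 16 were below 0. Meis1 itself did not pass in that fit either (-0.98, adjusted p = 0.186 over genes, limma). The SE of Meis1 was 0.16 there and 0.08 in the main fit. For Tk1 the SE was 0.165 there and 0.159 in the main fit over genes, with changes of -0.59 and -1.18. In pairs 1 and 2 alone Tk1 changed by -1.26 (adjusted p = 0.0249 over genes), and in pairs 3 to 5 alone by -1.14 (adjusted p = 0.141 over genes, limma).

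**Figure D3:**
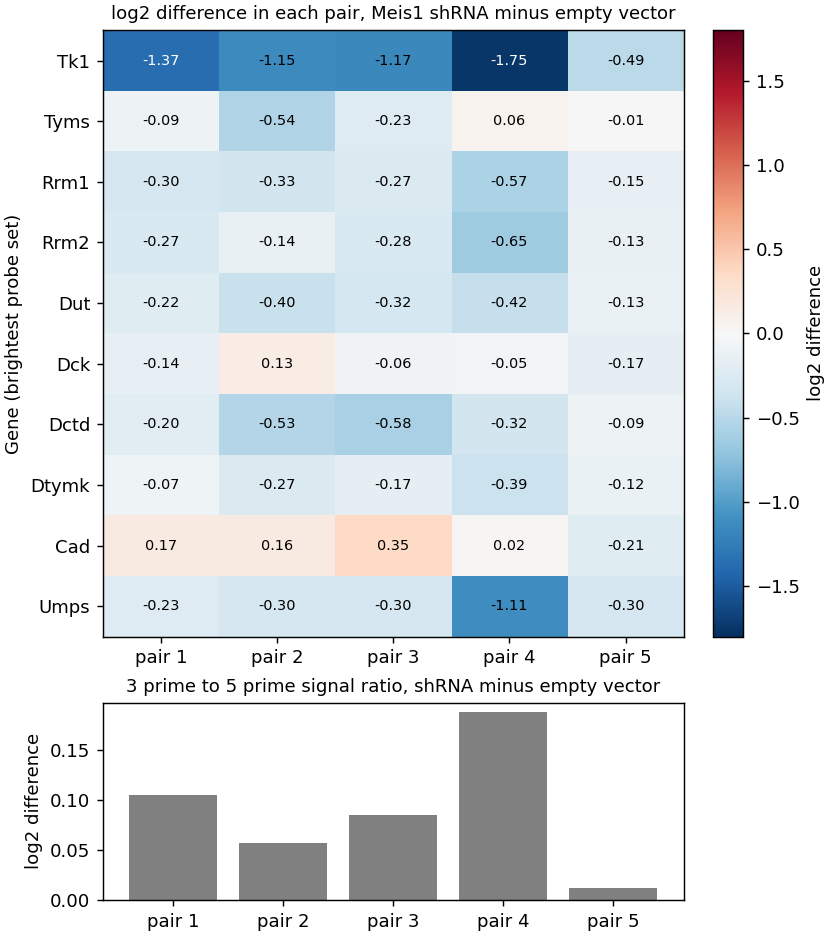
The upper panel is a heat map of the log2 difference (shRNA minus empty vector) of each enzyme's brightest probe set in each of the 5 pairs, with blue for lower, and the bars below give the difference in log2 3′ to 5′ ratio. Tk1 is the lowest entry in all 5 pairs, from -0.49 in pair 5 to -1.75 in pair 4, the pairs with the shortest and tallest bar.

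The number of members that passed differed between analysis settings. With an intensity trend and robust moderation 12 of 27 probe sets passed, all lower, in a fit that called 3.77% of all probe sets lower. With the same moderation over 1 probe set per gene, 7 of the 10 passed, the exceptions being Tyms, Dck and Cad, in a fit that called 5.74% of all genes lower. When the test was limited to the 11215 brighter probe sets, 8 of 18 passed, against 13.3% of all such probe sets. That restriction also lowered the number of tests adjusted over, and over 1 probe set per gene it left 4 members past the threshold, against 13.6% of genes. The members that passed at gene level under both settings were Tk1, Rrm1, Dut and Dctd.

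Across the 10 arrays the levels of several members ran together, which is described without a test because the arrays share groups and pairs. Pearson r of log2 levels was 0.965 between Tk1 and Rrm1, 0.909 between Tk1 and Rrm2 and 0.916 between the reductase subunits. It was 0.871 between Tk1 and Dut and 0.822 between Tk1 and Umps, but 0.08 for Dck and 0.06 for Dctd with Tk1. Cad had negative coefficients with each of the other 9. Among 6712 other genes compared, those most like Tk1 were Tpx2 (r = 0.988), a spindle assembly factor, Cdca5 (0.977), the cohesion protein sororin, and Gmnn (0.975), the replication licensing inhibitor geminin. Those most like Umps were Rad54l (0.966), a recombination protein, Nop16 (0.965), a nucleolar protein, and Tmem97 (0.953). Pair 4 held both extreme Umps values, and the coefficients were not computed without it. Umps was taken because its brightest probe set had the largest change among members that did not pass, an order that did not hold without pair 4 (Dctd -0.35) or with probe sets averaged (Umps -0.23, Rrm1 -0.37).

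The neighbouring steps of nucleotide metabolism were measured as lists, counted over 1 probe set per gene. Over all genes, 2.98% were called lower and 1.08% higher, which is the background for the counts of these lists. Of 20 other pyrimidine enzymes measured, 1 fell, Nme4, a mitochondrial nucleoside diphosphate kinase (-0.70, SE 0.12, adjusted p = 0.0186 by limma), 0 rose (2 higher at an unadjusted p under 0.05), and the median was 0.01. Nme4 passed in 9 of 15 alternatives, and in 2 of the 5 that left out a pair. Of 15 folate and one-carbon genes, which feed Tyms with its cofactor, 1 fell, the mitochondrial folate carrier Slc25a32 (-0.54, adjusted p = 0.0414), with a median of -0.15. In that list 13 of 15 had a change below 0, and 3 were lower and 0 higher at an unadjusted p under 0.05. Slc25a32 passed in 6 of 15 alternatives and in 1 of the 5 that left out a pair, and its change was -0.18 with the 3′ to 5′ ratio as a covariate. Of 17 purine genes, Pfas, a de novo synthesis enzyme, fell (-0.47, adjusted p = 0.0442) and the adenylate kinase Ak1, dim in controls, rose (1.15, adjusted p = 0.0391). The purine median was -0.11, with 12 of 17 below 0, and 5 genes were lower and 1 higher at an unadjusted p under 0.05. Pfas passed in 4 of 15 alternatives and in 0 of the 5 that left out a pair, and Ak1 in 6 of 14 and 1 of 5, with a change of 0.48 (adjusted p = 0.123) when its probe sets were averaged.

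The list for deoxynucleotide pool control and breakdown also held genes that supply deoxynucleotides, such as Rrm2b and Dguok. It gave 0 calls among 16 by limma, with 2 lower and 2 higher at an unadjusted p under 0.05 and a median of 0.02. The largest change among them was the ectonucleotidase Nt5e (0.47, adjusted p = 0.115). The 4 nucleoside transporters measured gave 0 calls, and 0 at the unadjusted level, with Slc28a3 furthest from 0 (0.12, adjusted p = 0.531).

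Beside these lists stood 23 replication and S-phase transcripts, a reference for the cell cycle. Of these, 10 fell, where 2.98% of all genes were called lower. All 23 had a change below 0, with a median of -0.37. Their summed intensity was 28773 to 32275 in controls and 22614 to 25653 with the shRNA. The largest decreases were Gins2 (-1.38) and Gins1 (-0.96), parts of the replicative helicase complex, and Cdc6 (-0.75), which loads the helicase. The count of 10 was 2, 3, 2, 3 and 9 when pairs 1 to 5 were left out in turn and 0 with the ratio as a covariate, where 20 of the 23 were below 0. It was 4 with quantile normalization and 7 without the replicate block. With trend and robust moderation it was 19, and with brighter probe sets only 17 of the 21 tested. Those fits called 5.74% and 13.6% of all genes lower. The summed intensity of the 10 enzymes was 10198 to 11017 in controls and 8213 to 9330 with the shRNA. The part of S-phase transcripts in the enzymes' values was not tested.

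**Figure D4:**
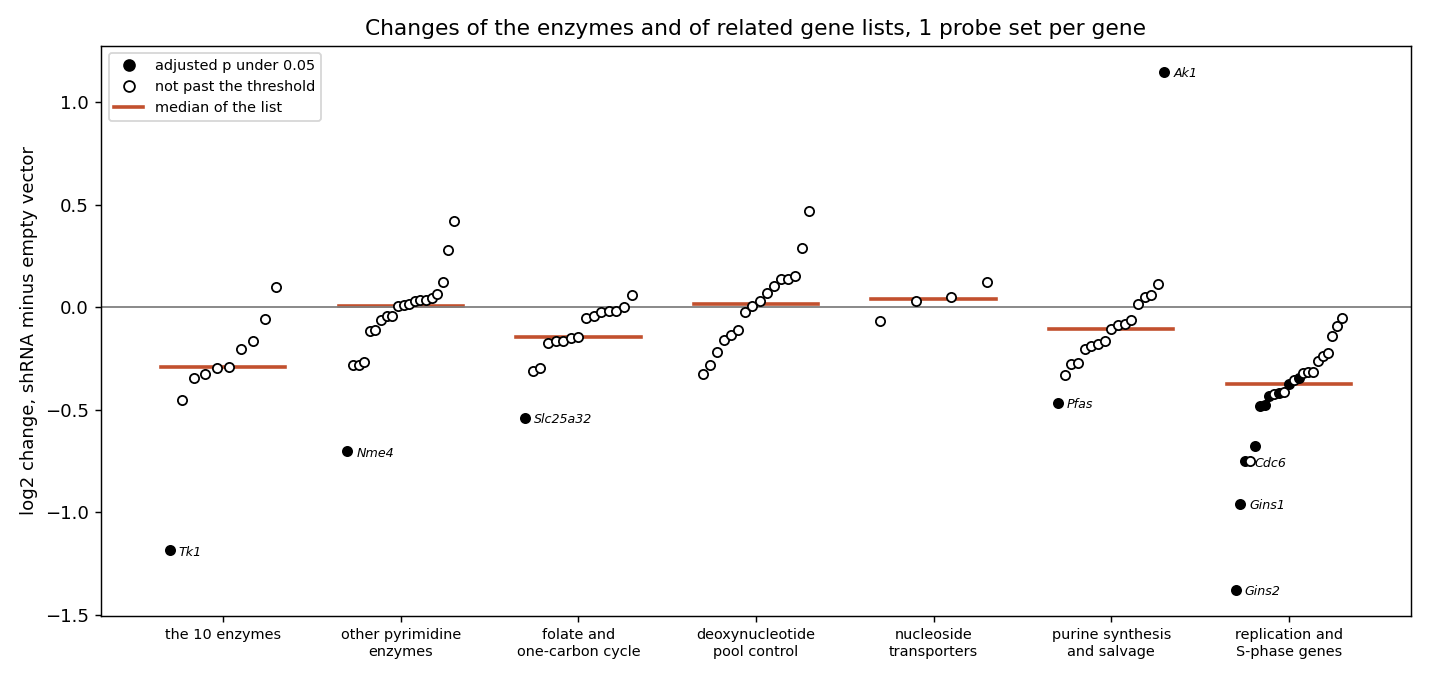
Log2 change per gene (shRNA minus empty vector) for the 10 enzymes and 6 related lists, 1 probe set per gene. Filled points passed an adjusted p of 0.05 by limma and bars are list medians, at -0.29 for the enzymes and -0.37 for the replication and S-phase genes.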

How the data were processed

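RNA of 10 samples (5 empty vector, 5 Meis1 shRNA) was hybridised to Affymetrix mouse expression arrays. The authors deposited probe set intensities on a linear scale, 1.30 to 32400, made with RMA per the submitters' processing notes. RMA corrects background, normalizes arrays by quantiles and summarises probes, and compresses large changes. Its version, and the genome build of the probes, are each not given in the sources used here. The linear scale is read from the range of the values.

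Values were log2-transformed with no pseudocount. After 64 Affymetrix controls were left out, 45037 probe sets were tested with limma 3.58.1 (R 4.3.3), with lmFit and eBayes, the pair number as a fixed block and two-sided p-values adjusted by Benjamini-Hochberg over all probe sets, at a threshold of 0.05. The same model was run on 1 probe set per gene, the one with the highest mean, over 18193 genes with 1 symbol. Member p-values are those over all probe sets. Values for lists, single sets of pairs, the covariate fit and averaged probe sets are adjusted over genes. The labels pair the samples, and deviations from group means correlated within every pair (r = 0.310 to 0.600 over 11215 probe sets). Correlations between samples of unlike pairs were not computed, so these values do not test the pairing by number. The model was tested on simulated data.

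All members are named. Each list is given by its count, with up to 3 called genes of largest change or, with none called, the gene of largest change. Likeness is given for Tk1 and Umps by 3 genes each. The members and lists were chosen with earlier results of these data known. The alternatives were normalization, variance moderation, array weights, the filter on dim probe sets, the block, a covariate and left-out pairs. The number of arrays limits the precision. Promoter windows are RefSeq's.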

Additional observations from a re-analysis of the deposited data

Results flagged for a closer look

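Among 54 sets of 5 samples examined (27 member probe sets in each group), 4 held a sample far from the other samples of its group, where chance gives about 1 in 20. The brightest Dut probe set read 2081 in control 5 (the nearest control was 2570). The dim Cad probe set read 10.72 in control 4 (nearest 6.016). The brightest Umps probe set was set apart in both groups of pair 4, with 374.8 in control 4 (nearest 337.6) and 173.4 in shRNA 4 (nearest 265.5).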

How the results depend on the processing

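Tk1 kept its direction in all alternatives run, and passed in all but the fit with the 3′ to 5′ ratio as a covariate and the fit of pairs 3 to 5. The 1116 probe sets called became 816 (691 lower) without the replicate block and 1438 (1094 lower) with array weights. The count was 2309 with trend and robust moderation and 2040 with brighter probe sets only. It was 631 in pairs 1 and 2, 88 in pairs 3 to 5 and 0 with the covariate (2504 at an unadjusted p under 0.05). With a pair left out it was 359 to 1674. The 1 member probe set called stood beside 1.96% of all called lower. It became 3 without the replicate block (691 of all 45037 lower) and 3 with array weights (1094 lower). It became 12 with trend and robust moderation (3.77% of all lower) and 8 of 18 with brighter probe sets only (13.3%). It was 0 with the covariate and 0 in pairs 3 to 5 (10 at an unadjusted p under 0.05). With a pair left out it was 1 to 4. The 4 were without pair 5 (Tk1, 1 of Rrm1 and 2 of Rrm2), in the fit that called 1674 of all. The 1 member gene called became 7 with trend and robust moderation (5.74% of all genes lower) and 4 with brighter probe sets only (13.6%). It was 0 with the covariate (1 at an unadjusted p under 0.05) and 0 in pairs 3 to 5 (6). With probe sets averaged it was 2, without a share over all genes to set beside it. Signs turned for Rad54l (0.0107 with the covariate), Cd4 (-0.00466 in pairs 1 and 2), Cad (-0.00287) and Slc28a3 (-0.0258), both with probe sets averaged. For members 136 results were unchanged in direction and call, 10 gained a call, 2 lost it and 1 turned, whereas for the other named or called genes 268 were unchanged, 8 gained a call, 150 lost it and 3 turned. The count of brighter member probe sets below 0, added after seeing the data, stayed at 16 to 17 of 18. The cause of these differences was not tested. Dim probe sets, among them all of Tyms, limit what can be seen.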
